A study of Mus musculus with 2 samples.

Results

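The 38 genes described here act in DNA replication and S phase of the cell cycle. They were taken as a named list, with no threshold on a measured value but with earlier results of these data known, and all 38 were found among the 15745 genes of the table of transcript counts, each a protein-coding gene with transcripts at both days. Cells of mouse intestinal organoids, which are cultures grown from the gut lining, were profiled singly by droplet sequencing of transcript 3' ends, in which a unique molecular identifier (UMI) marks each captured transcript. One library was made at day 5 and 1 at day 3, both from wild-type C57BL/6 mice of 10 weeks per the labels. The day 5 organoids had received basal medium with EGF, Noggin and R-spondin (ENR) alone since day 3. Up to day 3 all organoids had also received Wnt3a-conditioned medium (20%) and the ROCK inhibitor Y-27632 (10 µM), and up to day 1 also the GSK3B inhibitor CHIR99021 (3 µM). Day and medium therefore differ together and cannot be told apart, and with 1 library per day no test between days is possible.

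A cell copies its genome once per cycle. Before S phase the loaders Cdc6 and Cdt1 place the Mcm2 to Mcm7 helicase on replication origins, a step called licensing, and Gmnn (geminin) blocks Cdt1 afterwards so that no origin is licensed again. E2F transcription factors, released when cyclin-dependent kinases phosphorylate the retinoblastoma protein, switch on many of these genes at the G1/S border. In the intestinal crypt, stem cells and the transit-amplifying cells above them divide, and most differentiated absorptive and secretory cells have left the cycle.

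At day 5, 1065 cells gave 17349076 UMIs, and the totals of single cells started at 6777 around a median of 13549. At day 3, 798 cells gave 28764033 UMIs, and the totals of single cells started at 17601 around a median of 32063.5. All 8 general epithelial markers were detected at both days, at 119 to 1543 UMIs in every 1000000 of the library (CPM) at day 5 and 119 to 2068 CPM at day 3. The table held 2 of 7 listed immune markers, with 20 UMIs at day 5 and 44 at day 3 in all, and 2 of 7 stromal and endothelial markers, with 11 and 29 UMIs. The columns of the table carry no cell barcodes, so barcodes shared between the libraries could not be counted, and no 2 cells had identical counts. Intervals in brackets are exact 95% intervals that cover counting error only.

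Promoter windows from RefSeq (GRCm38.p6), 250 bases before to 50 after a gene's start, were found for 30 of the 38 genes, in 36 windows. They are shown because most of these genes are known targets of E2F factors in mammalian cells, and they introduce the genes at both ends of the single-cell comparison described further on. Both strands of each window were searched for forms of the E2F recognition motif. The first form was TTCCCGC, which is the most often cited. The second form searched was TTGGCGC, whose matches on opposite strands can overlap each other and those of other forms. The remaining forms were TTCGCGC, searched in the same way, and finally also TTGCCGC. Any of these was found in 24 of 36 windows, or 66.7%, against 9.57% of 32851 windows of the same length over all genes. The share was 52.2% of 46 windows from 39 of 48 other replication genes and 21.9% of 32 windows from 30 of 35 genes of G2 and mitosis. For CCAAT, searched in the same way and known from promoters of many cell cycle genes, it was 63.9% in the 38 genes' windows, 47.8% for the other replication genes, 78.1% for the G2 and mitosis genes and 37.4% over all genes. Median GC content was 58.2% in the 38 genes' windows and 52.7% over all, and its part in these shares was not tested. The 42 E2F matches lay between 235 bases before and 42 bases after the start site, with a median of -43, and 27 lay within 100 bases of it. A match is a description of letters and not a measured binding site. The first 3 windows below belong to genes from the ends of the ranking by S phase cells. Mcm6 and Mcm3 were added after their matches were seen, because Mcm6 had the most, with 5. E2F matches are in capitals, and overlapping matches run together.
Ccne1 promoter (chr7:38107441-38107740, minus strand): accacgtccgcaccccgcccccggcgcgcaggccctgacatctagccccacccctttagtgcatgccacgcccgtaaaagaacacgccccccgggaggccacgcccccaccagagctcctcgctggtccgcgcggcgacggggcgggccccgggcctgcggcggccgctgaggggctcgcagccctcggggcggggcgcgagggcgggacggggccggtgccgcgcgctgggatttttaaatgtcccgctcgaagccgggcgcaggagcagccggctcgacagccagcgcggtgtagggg
Ung promoter (chr5:114130185-114130484, plus strand): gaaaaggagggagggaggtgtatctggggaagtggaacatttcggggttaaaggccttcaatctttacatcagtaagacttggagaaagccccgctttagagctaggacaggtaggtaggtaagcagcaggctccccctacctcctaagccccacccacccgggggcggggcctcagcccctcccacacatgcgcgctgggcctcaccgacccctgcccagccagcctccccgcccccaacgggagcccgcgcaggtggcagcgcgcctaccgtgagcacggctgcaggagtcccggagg
Pola1 promoter (chrX:93632106-93632405, minus strand): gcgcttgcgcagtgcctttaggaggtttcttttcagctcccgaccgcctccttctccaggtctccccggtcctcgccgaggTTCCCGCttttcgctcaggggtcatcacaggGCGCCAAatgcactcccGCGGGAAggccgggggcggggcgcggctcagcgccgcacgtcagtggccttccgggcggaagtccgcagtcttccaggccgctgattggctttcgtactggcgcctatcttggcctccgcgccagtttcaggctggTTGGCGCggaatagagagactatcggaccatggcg
Mcm6 promoter (chr1:128359656-128359955, minus strand): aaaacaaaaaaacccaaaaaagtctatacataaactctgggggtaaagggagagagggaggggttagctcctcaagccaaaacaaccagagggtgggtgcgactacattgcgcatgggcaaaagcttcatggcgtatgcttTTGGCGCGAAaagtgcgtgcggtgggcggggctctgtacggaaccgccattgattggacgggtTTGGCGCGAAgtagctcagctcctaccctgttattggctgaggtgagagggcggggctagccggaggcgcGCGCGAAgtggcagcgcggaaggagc
Mcm3 promoter (chr1:20820263-20820562, minus strand): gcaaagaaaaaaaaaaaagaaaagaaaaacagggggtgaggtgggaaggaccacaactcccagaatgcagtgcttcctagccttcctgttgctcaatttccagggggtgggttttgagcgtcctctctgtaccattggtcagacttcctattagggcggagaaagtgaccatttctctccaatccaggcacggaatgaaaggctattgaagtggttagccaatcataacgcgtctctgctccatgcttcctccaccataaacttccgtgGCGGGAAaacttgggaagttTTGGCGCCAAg
The Ccne1 and Ung windows held 0 matches, Pola1 held 4 and Mcm3 held 3. In Mcm3 the matches lie 19 to 42 bases after the start site, and in Mcm6 they lie between 109 bases before it and 24 after it. No entry was at hand for Gmnn, Mcm4, Gins2, Rfc2, Ccne2, Exo1, Usp1 and Tipin.

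The replication genes were lower at day 5 as a group. Summed over the 38 genes, the level was 801 CPM (788 to 815) at day 5, against 1875 CPM (1860 to 1891) at day 3, with a log2 ratio of -1.23 (-1.25 to -1.20). A gene was called higher or lower where its CPM differed by at least 1.5-fold and the Poisson intervals did not overlap. By this rule 36 of 38 genes were lower at day 5 and 0 higher. Of all 12782 genes with at least 10 UMIs, 31.5% were called lower and 12.3% higher, and the median log2 ratio was -1.28 for the 38 genes and -0.33 for all. Scaling with TMM factors, which moved the median of all genes by 0.31, gave -0.91 for the sum and left 34 genes lower, with Pcna (-0.41) and Tcf19 (-0.54) no longer called. With these factors 17.1% of all genes were called lower and 18.8% higher.

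Among the licensing genes, Cdc6 was at 5.42 CPM at day 5 and 13.5 CPM at day 3. Cdt1 was at 18.7 CPM at day 5 and 42.7 CPM at day 3, and its inhibitor Gmnn at 47.1 CPM at day 5 and 102 CPM at day 3. The loaders and their inhibitor thus differed by similar log2 ratios, -1.31 for Cdc6, -1.19 for Cdt1 and -1.11 for Gmnn. All 6 subunits of the Mcm2 to Mcm7 helicase were lower, between -1.66 for Mcm3 (18.4 CPM at day 5, 58.3 CPM at day 3) and -0.99 for Mcm7 (33.2 CPM at day 5, 65.8 CPM at day 3). Mcm2 stood at -1.46, Mcm4 at -1.32, Mcm5 at -1.37 and Mcm6 at -1.07. The genes that turn the loaded helicase into an active one followed, with Mcm10 at -1.45, Cdc45 at -1.07 and the GINS subunit Gins2 at -0.96.

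By the sum of each group, the genes of DNA synthesis at the fork differed least, with a log2 ratio of -0.96 (-1.01 to -0.90). By the median gene, those that activate the helicase differed least, at -1.07, against -1.11 for the synthesis genes. Prim1, the primase subunit that starts each new strand, was at 23.9 CPM (21.7 to 26.3) at day 5, against 34.0 CPM (31.9 to 36.2) at day 3. Its log2 ratio of -0.51 stayed short of 1.5-fold and it was not called. Pcna, the sliding clamp that holds polymerases on DNA, was at 61.1 CPM (57.5 to 64.9) at day 5, against 101 CPM (97.3 to 105) at day 3, with a log2 ratio of -0.72. Pola1, the catalytic subunit of polymerase alpha, stood at -1.11, the clamp loader subunit Rfc2 at -0.96 and the single-strand binding protein gene Rpa2 at -1.18. The flap nuclease gene Fen1 stood at -1.30 and the ligase gene Lig1, which joins Okazaki fragments, at -1.17.

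Genes that supply nucleotides were lower together. Rrm2, the regulated subunit of ribonucleotide reductase, was at 26.0 CPM at day 5 and 83.0 CPM at day 3, a log2 ratio of -1.67. Its partner Rrm1 stood at -1.32 and Tyms, which makes thymidylate, at -1.07. Of the genes that rebuild chromatin behind the fork, Hells, a chromatin remodeller, was at 40.9 CPM at day 5 and 118 CPM at day 3, a log2 ratio of -1.53. Uhrf1, which reads hemimethylated DNA, stood at -1.43, the CAF-1 histone chaperone subunit Chaf1b at -1.44 and Slbp, which binds the ends of histone mRNAs, at -0.96.

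The regulators of S phase entry spanned most of the range, from -2.24 to -0.54. Ccne1 (ENSMUSG00000002068, cyclin E1, chromosome 7 from 38097984 to 38107534 on the minus strand, GRCm38), the kinase partner that drives entry into S phase, had the lowest ratio of the 38 genes. It was at 3.75 CPM (2.89 to 4.78) from 65 UMIs at day 5 and at 17.8 CPM (16.3 to 19.4) from 513 UMIs at day 3, a log2 ratio of -2.24 (-2.65 to -1.88). The 10 cells with most Ccne1 UMIs held 30.8% of them at day 5 and 11.9% at day 3. Ccne2, cyclin E2, stood at -1.25. E2f1, an activator of these genes, was at 5.07 CPM at day 5 and 18.0 CPM at day 3, a log2 ratio of -1.82. Its relative E2f2 (chromosome 4 from 136172394 to 136196057) was at 13.2 CPM (11.5 to 15.0) at day 5, against 19.3 CPM (17.7 to 20.9) at day 3, a ratio of -0.54 that was not called. Tcf19, a gene first described from its rise at the G1/S border, stood at -0.85.

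Repair and checkpoint genes of the fork had the lowest ratio of all role sums, at 109 CPM (104 to 114) at day 5, against 313 CPM (307 to 320) at day 3, with a log2 ratio of -1.53 (-1.60 to -1.46). Exo1, a repair exonuclease, stood at -1.70, Tipin, part of the fork protection complex, at -1.69 and Usp1, which removes ubiquitin from Pcna, at -1.64. Dtl, which directs the destruction of Cdt1 during S phase, stood at -1.60 and the checkpoint mediator gene Clspn at -1.35. Ung, which removes uracil from DNA, stood at -1.22 and Rad51ap1, a gene of homologous recombination, at -1.08.

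**Figure D1:**
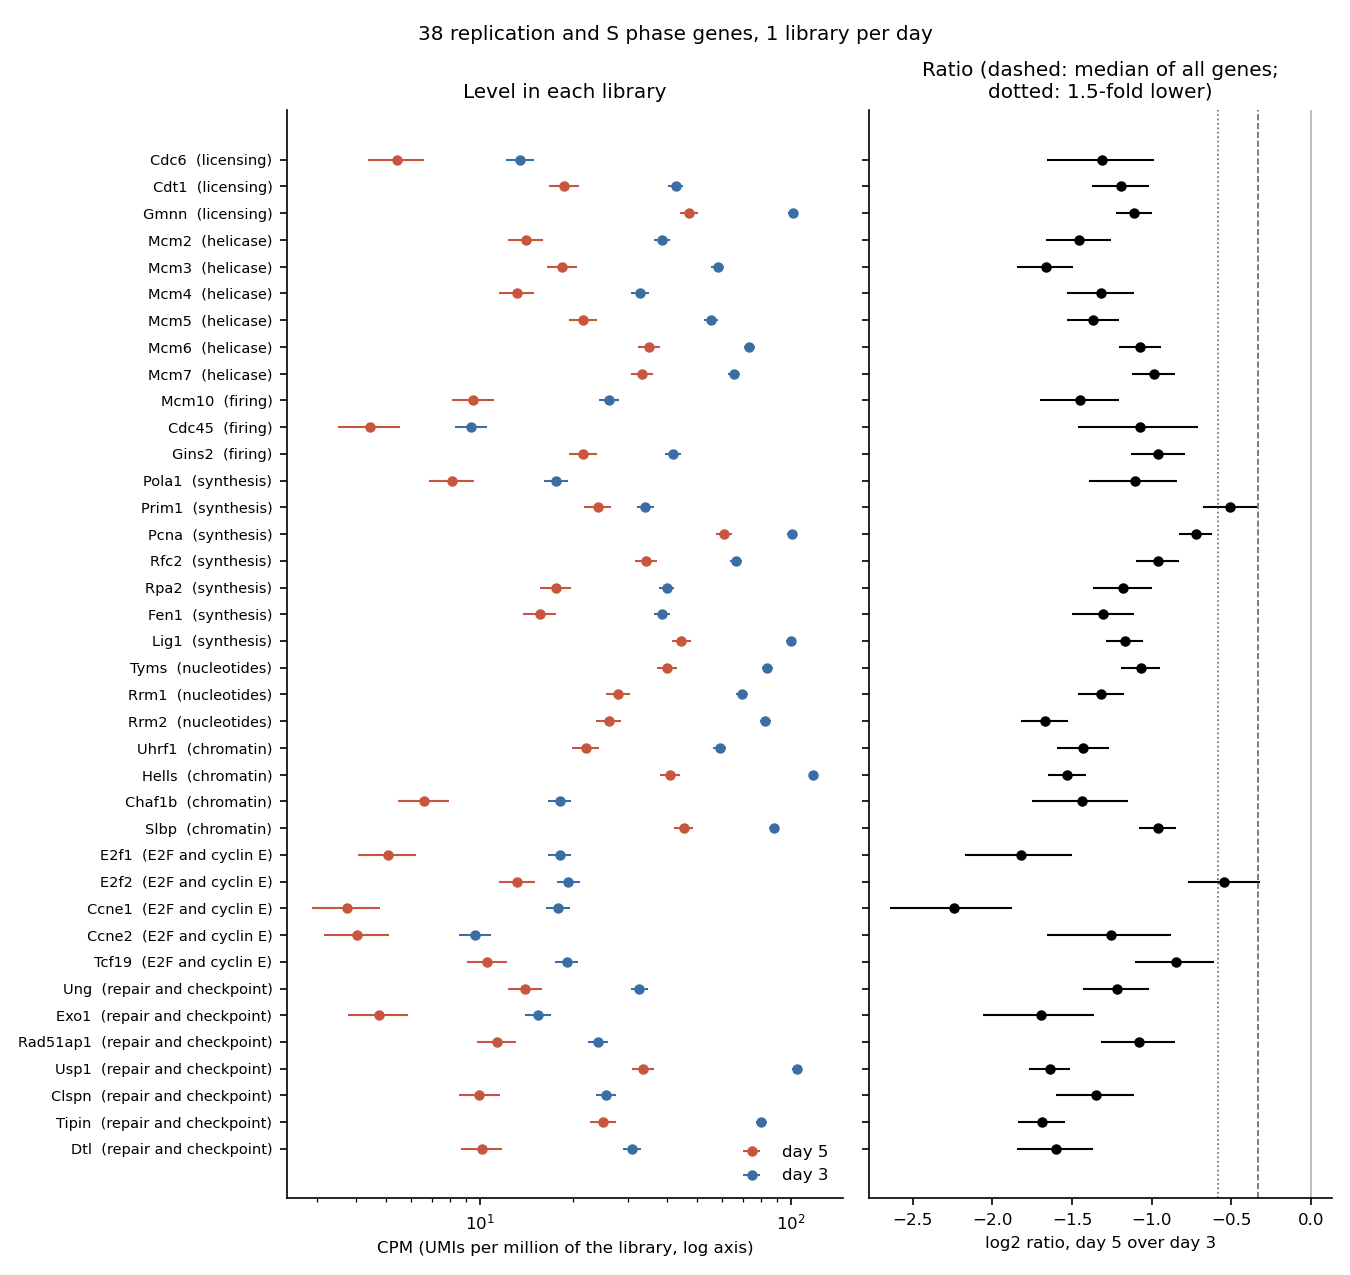
Level of each of the 38 genes in CPM on a log axis (left) and log2 ratio of day 5 over day 3 (right), grouped by role, with bars for exact 95% counting intervals and 1 library per day. All 38 points lie left of 0 in the right panel, from -2.24 for Ccne1 to -0.51 for Prim1, and the dashed line marks the median of all genes at -0.33.

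Replication genes outside the list showed the same direction. Of 48 further genes (origin recognition complex, polymerases, clamp loaders, nucleotide enzymes and histone chaperones), 41 were lower at day 5 and 0 higher, with a median of -1.01. At the low end stood Orc1, the largest origin recognition subunit (1.21 CPM at day 5, 5.70 CPM at day 3, -2.21), and Topbp1, which helps to fire origins (-1.90). At the high end stood the GINS subunit Gins1, at 14.7 CPM at day 5 and 12.9 CPM at day 3 (0.19), and Rnaseh2a, which removes RNA from DNA (-0.04), neither called. Of 35 genes of G2 and mitosis, 31 were lower and 0 higher, with a median of -1.11, from Nusap1 (-0.26) and Ckap2 (-0.48), neither called, to Anln (-1.68) and Ect2 (-1.85). Among day 5 cells with at least 17601 UMIs, 5 of the 35 were lower, and 27 of the 48 other replication genes, against 23.0% of all genes lower and 8.7% higher. The count of 5 is thus a share below that of all genes. In G2/M-high cells alone, described further on, 12 of the 48 were lower and 2 higher, against 18.0% of all genes lower and 6.73% higher. Of 20 genes of D cyclins, their kinases, CDK inhibitors and the retinoblastoma family, 13 were lower and 1 higher. With TMM factors it was 8 lower and 3 higher, and among day 5 cells with at least 17601 UMIs 10 lower and 0 higher. The higher one was Cdkn2b, which encodes the CDK4/6 inhibitor p15, at 59.4 CPM at day 5 and 22.0 CPM at day 3 (1.43). In the deeper day 5 cells it was at 31.5 CPM (0.52) and in G2/M-high cells at 16.8 CPM at day 5 and 18.4 CPM at day 3 (-0.12), and it was called in neither. Rb1, the retinoblastoma gene, stood at 0.53 and was not called (0.84 and called with TMM factors), and cyclin D1 (Ccnd1, -1.79) and its kinase partner Cdk6 (-1.81) were lower.

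Fewer day 5 cells carried a high load of these transcripts. To set cells of unequal depth side by side, every cell was reduced by random draws to 6500 UMIs, which left out no cell, and the UMIs of the 38 genes were counted in it. The median cell had 2 such UMIs at day 5 and 11 at day 3, and the highest 36 at day 5 and 38 at day 3. Of the day 5 cells, 244 (22.9%) had none, and of the day 3 cells 12 (1.504%). Cells with at least 20 UMIs are called S-high here, a range of a score and not a cell type. They numbered 39 at day 5, or 3.66% (2.62 to 4.97), and 141 at day 3, or 17.7% (15.1 to 20.5). With a limit of 10 UMIs the shares were 15.2% at day 5 and 59.5% at day 3. Within 2 UMIs of the limit lay 27 day 5 cells and 116 day 3 cells. The S phase call of scanpy, scored from these genes and the 35 genes of G2 and mitosis, gave 14.4% at day 5 and 36.8% at day 3. S-high cells of both days had UMIs of a median of 16 of the 38 genes.

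**Figure D2:**
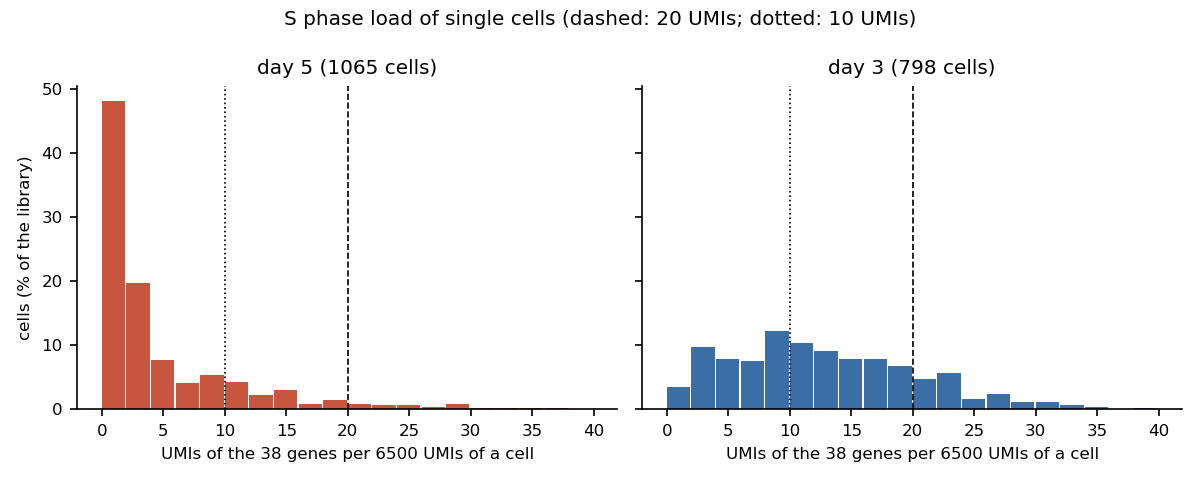
Share of cells of each library (vertical axis, percent) by the number of UMIs of the 38 genes in a cell thinned to 6500 UMIs (horizontal axis, bins of 2), day 5 left and day 3 right. The day 5 cells pile up near 0 with a median of 2, and the day 3 cells spread around a median of 11.

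Shares of cells with a transcript followed the levels. Pcna had a UMI in 26.2% of thinned day 5 cells and 46.4% of thinned day 3 cells, and in 44.5% and 86.2% before thinning. In the 162 day 5 cells of the Enterocyte-like cluster, whose median depth of 11396 UMIs stands against 13549 for all day 5 cells, the thinned share was 14.8%. In the 365 day 5 cells that were Enterocyte-like when both libraries were clustered together it was 21.1%, and in the 72 Enterocyte-like day 3 cells 30.6%. Enterocytes mostly do not divide, so their shares were set beside those of all cells. Genes of similar level differed in the 365 cells. Slbp, at 45.4 CPM over the day 5 library, had a UMI in 13.4% of them, and Lig1, at 44.5 CPM, in 0.274%. Whether these shares are background or expression in these cells was not tested. For Pcna the 21.1% came near the 26.2% of all day 5 cells, which include these 365 cells. The 14.8% lay further below it. The day 3 Enterocyte-like cells are a weaker comparison, since 9.72% of the 72 cells were G2/M-high, a range described further on. For Gmnn the thinned share was 20.6% at day 5, with 10.5% and 10.1% in the Enterocyte-like cells by each clustering, and 43.1% at day 3, with 19.4%. For Mcm5 it was 8.64% at day 5, with 0% and 0.274%, and 31.6% at day 3, with 8.33%.

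Each gene was then set against the other 37, which alone decided which cells counted as S-high for it. By gene, that class held 30 to 39 cells at day 5 and 112 to 140 at day 3, so the genes were not ranked on the same cells. At day 5, 37 of 38 genes were higher in S-high cells than in the remaining cells, with a median log2 ratio of 2.50, and at day 3, 34 of 38, with a median of 0.97. Of genes outside the list, 8.82% were called higher and 6.9% lower at day 5, and 1.99% higher and 4.44% lower at day 3. At day 5 the highest ratio was that of Ccne2, at 37.4 CPM in S-high cells and 2.70 CPM in the others (3.81). Cdc6 (3.43), Ccne1 (3.40), E2f1 (3.27) and the helicase activator Cdc45 (3.06) came next. These ratios rest on 20 UMIs in S-high cells for Ccne1 and Cdc45, 25 for Ccne2 and E2f1 and 29 for Cdc6. Their intervals overlap, with 3.03 to 4.53 for Ccne2 and 2.22 to 3.79 for Cdc45. At day 3 the highest was Ccne1, at 47.2 CPM in S-high cells and 12.8 CPM in the others (1.89), then Ung (1.69), Ccne2 (1.63), Clspn (1.54) and Tcf19 (1.48). The genes with the highest ratios at both days thus included both cyclins E. E2f2 was called at neither day (0.98 at day 5, 0.53 at day 3), and at day 3 Usp1 (0.28), Pola1 (0.48) and Rfc2 (0.52) were not called either. S-high cells were deeper than the others at day 5, with medians of 17182 and 13351.5 UMIs, and shallower at day 3, with medians of 28135 and 32968 UMIs. The part of depth and of the cell types among the other cells in these ratios was not tested.

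Genes outside all lists that tracked S-high cells at both days, ranked among 1495 by the lower of their 2 ratios, were led by Dnajc9, a histone chaperone (1.93 at day 5, 0.90 at day 3), and Pclaf, which binds Pcna (2.23 at day 5, 0.78 at day 3). Next came Rbmxl1, Stmn1, a regulator of microtubules, the purine synthesis gene Paics, Hist1h2ae, Ppid, the polymerase epsilon subunit gene Pole4, Fkbp3 and Magoh, with 0.60 to 0.73 at day 3. Hist1h2ae has near-identical copies that the counting could confuse. Of the 48 other replication genes, 40 were higher in S-high cells at day 5 (median 1.79) and 28 at day 3 (median 0.67), and 0 lower at either day.

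Within the list, genes differed in how far their transcripts reached into cells of G2 and mitosis. G2/M-high cells, with at least 20 UMIs of the 35 genes of G2 and mitosis in the thinned cell, were 155 at day 5, or 14.6% (12.5 to 16.8), and 370 at day 3, or 46.4% (42.9 to 49.9). In all, 6 cells at day 5 (0.563%) and 34 at day 3 (4.26%) were both S-high and G2/M-high. Of G2/M-high cells, 3.87% were S-high at day 5 and 9.19% at day 3, against 3.66% and 17.7% of all cells. At day 5, 22 of the 38 genes were higher in G2/M-high cells than in the others and 1 lower, with 14.1% of genes outside the list of G2 and mitosis called higher and 11.5% lower. At day 3, 0 were higher and 8 lower, with 2.1% and 4.34% of genes outside that list. G2/M-high cells were deeper than the others, with medians of 21051 and 12811 UMIs at day 5 and 34640.5 and 28564 at day 3. The part of depth and of the cell types among the other cells in these counts was not tested. The Spearman correlation of both UMI sums across cells was 0.58 over the 1065 cells of day 5 and 0.05 over the 798 cells of day 3. The sums share the thinned cell, and at day 5 many cells were low in both, with 82.3% in neither range against 40.2% at day 3.

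The 8 genes lower in G2/M-high cells at day 3 included both cyclins E, both helicase loaders and E2f1. Ung was at 16.3 CPM in G2/M-high cells and 48.7 CPM in the others (-1.58), Ccne1 at 9.89 CPM and 25.6 CPM (-1.37) and Ccne2 at 5.54 CPM and 13.7 CPM (-1.30). Cdc6 stood at -0.94, E2f1 at -0.78, Cdt1 at -0.65, Mcm4 at -0.61 and Tcf19 at -0.59. At the other end at day 3 stood Usp1 (0.41), Rrm1 (0.36), Pola1 (0.34), Lig1 (0.32) and Prim1 (0.29), none called. At day 5 Ung was again lower, at 7.29 CPM in G2/M-high cells and 15.7 CPM in the others (-1.09). Cdc6 (-0.52), Ccne1 (-0.29), Mcm2 (-0.03) and Mcm4 (-0.02) were also on the low side and not called, and Rad51ap1 (2.17), Exo1 (2.09), Rrm1 (1.94), Rrm2 (1.86) and Mcm10 (1.62) had the highest ratios. Per UMI of a gene, the cell that held it had on average 12.7 UMIs of the genes of G2 and mitosis for Ccne2, 14.6 for Ccne1 and 14.7 for Ung at day 3, against 20.1 over all day 3 cells. It had 22.4 for Tyms and 23.1 for Mcm10. Transcripts of the cyclins E and Ung thus lay in cells with fewer transcripts of G2 and mitosis than those of Tyms or Mcm10.

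**Figure D3:**
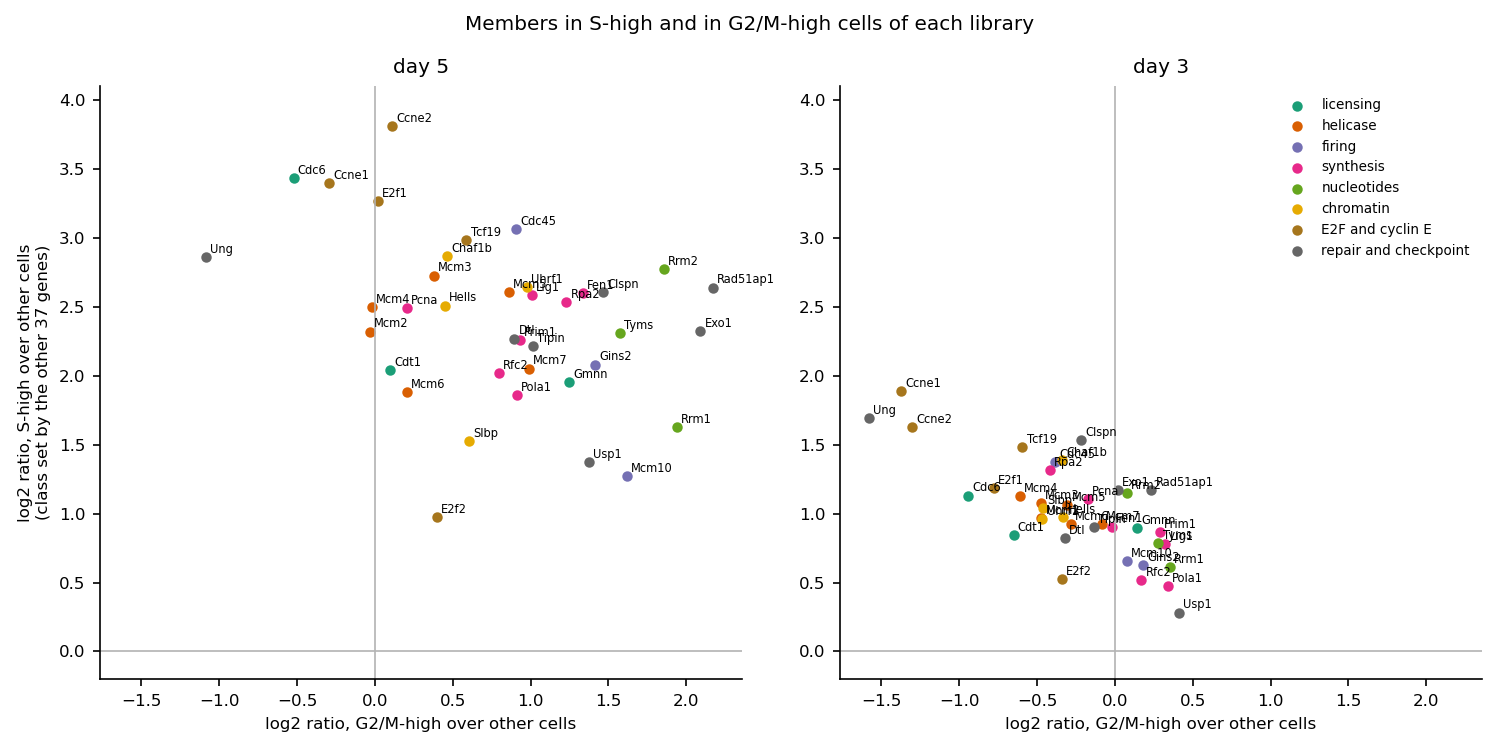
Log2 ratio of each gene in S-high over other cells (vertical axis, class set by the other 37 genes) against its log2 ratio in G2/M-high over other cells (horizontal axis), day 5 left and day 3 right, coloured by role. Ung, Ccne1 and Cdc6 lie left of 0 in both panels, and 22 genes are called higher in G2/M-high cells at day 5 against 0 at day 3.

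The lower levels at day 5 were smaller in size when G2/M-high cells of both days were set side by side, an alternative chosen after the data were seen. In these cells the sum of the 38 genes was 1272 CPM (1235 to 1310) at day 5, against 1787 CPM (1765 to 1809) at day 3, with a log2 ratio of -0.49 (-0.54 to -0.44). Here 16 genes were lower at day 5 and 0 higher, with 18.0% and 6.73% of all genes. The lower ones included Ccne1 (-1.62), E2f1 (-1.36), Mcm2 (-1.22), Cdc6 (-1.18), Ung (-1.13), Mcm3 (-1.11) and Hells (-1.01). Some of these rest on few UMIs in the day 5 cells, 11 for Ccne1, 14 for Cdc6, 18 for E2f1 and 26 for Ung. Mcm2 had 49, Mcm3 80 and Hells 185. Gins2 (-0.05), E2f2 (-0.05), Rpa2 (-0.07) and Tcf19 (-0.07) were close to 0, and Prim1 (0.04) and Rad51ap1 (0.20) slightly above it, none called. Among the 320 day 5 cells that reached the lowest day 3 total of 17601 UMIs, the sum stood at -0.78 against all day 3 cells. In that setting 30 genes were lower, against 23.0% of all genes lower and 8.7% higher. Without cells of Enterocyte-like clusters the sum stood at -1.16, with 36 genes lower, against 30.3% of all genes lower and 12.2% higher. Where those clusters were made from both libraries together it stood at -0.91, with 34 genes lower, against 27.9% of all genes lower and 9.8% higher.

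Clusters were made in each library without the 38 genes, the other replication genes, the genes of G2 and mitosis and histone genes, although other cycle genes such as Foxm1 and Nek2 remained. At day 5 the Stem-like cluster (169 cells) was led by Ung, and its first 10 genes held Mcm3 and Mcm6 beside the stem genes Gkn3, Rgcc and Ifitm3. Its 25 leading genes held 3 stem markers, the least that gives this name. It held 1454 CPM of the 38 genes and 13.6% S-high cells (8.83 to 19.7), and since Ung, Mcm3 and Mcm6 are on the list this is a description of that cluster. The Enterocyte-like cluster held 143 CPM and 0 S-high cells of 162, which allows a share of up to 1.85%, taking 3 cells as the limit for a count of 0 here and in later shares. Unnamed clusters 1, 4 and 5, led by Slc5a4b and Ggt1, by Edn1 and Edn2, and by 1500035N22Rik, held 154 to 181 CPM and also 0 S-high cells. The remaining S-high cells of day 5 lay in 2 unnamed clusters led by mitotic genes, with 10.1% of 89 cells (Pimreg, Ttk) and 4.67% of 107 cells (Nek2, Prr11), and in the mixed secretory cluster, with 5.00% of 40 cells (0.611 to 16.9). Median depths were 16050 UMIs in the Stem-like cluster and 11396 in the Enterocyte-like cluster. When both libraries were clustered together, the Stem-like cluster held 129 cells at a median depth of 32215 UMIs. How many of them were day 5 cells was not determined.

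At day 3 S-high cells were found in more of the clusters. The Stem-like cluster (139 cells, led by Rgcc, Gkn3 and Lgr5) held 2445 CPM of the 38 genes and 28.8% S-high cells (21.4 to 37.1). Cluster 5 (90 cells) held 2730 CPM and 47.8% (37.1 to 58.6). Its leading genes Ccne1, Ccne2 and Ung are themselves on the list, so its share is a description of that cluster. Cluster 8 (50 cells, led by Fcgrt and H2-T3, with Ccne2 and Ung among its leading genes) held 34.0%. The Fetal and regenerative-like cluster (90 cells, led by Msln and Sprr1a) held 1572 CPM and 11.1% (5.46 to 19.5), and the mixed secretory cluster 8.89% of 45 cells (2.48 to 21.2). The Enterocyte-like cluster held 616 CPM and 0 of 72 cells, which allows up to 4.17%. Broader clusters, at a resolution of 0.5, put 10.1% S-high cells into the day 3 Enterocyte-like cluster. Cluster names were rebuilt here from markers and are not the authors' own.

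**Figure D4:**
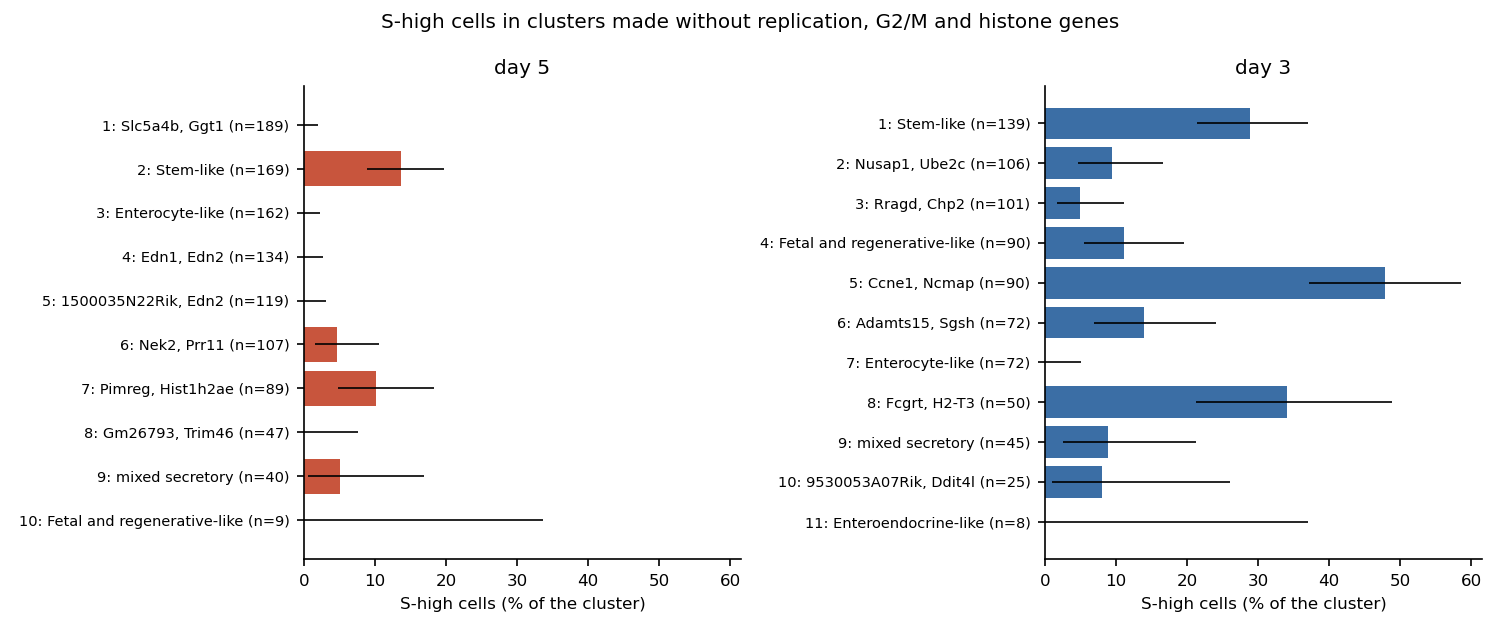
Share of S-high cells (horizontal axis, percent of the cluster) in each cluster, day 5 left and day 3 right, with exact 95% binomial intervals for counting error, which at 0 reach slightly higher than a limit of 3 cells. Unnamed clusters are given by their first 2 leading genes. At day 5 bars stand in 4 of 10 clusters, with the Stem-like one at 13.6%, and at day 3 in 9 of 11, with cluster 5 at 47.8%.

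Of the stem cell genes, more were higher in S-high cells at day 5 than at day 3. This held for genes at large too. Of 14 listed stem genes with at least 10 UMIs at day 5, 9 were higher in S-high cells and 0 lower, with a median log2 ratio of 1.02. At day 3 it was 5 of 13 and 0, with a median of 0.27. Outside the main list of replication genes, 8.82% of genes were called higher at day 5 and 1.99% at day 3. The stem counts of the days thus cannot be compared directly. Without Enterocyte-like clusters of both libraries, 5 of 14 were higher at day 5, with a median of 0.65. Without those of each library, 3 of 13 were higher at day 3. For these choices of cells the shares over all genes were not computed. Lgr5, the R-spondin receptor that marks crypt base stem cells, was at 45.0 CPM in S-high cells and 17.3 CPM in the others at day 5 (1.40). At day 3 it was at 18.6 CPM in S-high cells and 15.5 CPM in the others (0.27), and it was not called. Rgcc, a cell cycle regulator, was higher at both days (2.12 at day 5, 0.71 at day 3), as were Rgmb (1.98 at day 5, 0.62 at day 3), Gkn3 (1.07 at day 5, 0.73 at day 3) and Ifitm3 (1.23 at day 5, 0.63 at day 3). Ascl2, a stem cell transcription factor, stood at 1.28 at day 5 from 7 UMIs, not called, and was higher at day 3 (0.92). Seen from the stem genes, S-high cells were 0 of the 417 day 5 cells with none of their UMIs, which allows up to 0.719%, 3.64% of 330 cells with 1 to 2, 5.53% of 235 cells with 3 to 7 and 16.9% of 83 cells with 8 or more. At day 3 the shares were 11.6% of 43 cells, 11.1% of 216, 18.3% of 389 and 27.3% of 150. Median depth in these day 5 classes was 11087, 14201, 19083 and 17336 UMIs before thinning, and its part in the shares was not tested. Cdk6, a stem gene here, is also in the list of cyclin D partners.

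Genes of fetal and regenerating epithelium were lower in S-high cells at day 3 by summed CPM, but not in the median cell. Of 13 such genes 8 were lower there and 0 higher, with a median of -0.86. Outside the main list of replication genes, 6.9% of genes were called lower at day 5 and 4.44% at day 3. Msln, which encodes mesothelin, was at 41.2 CPM in S-high cells and 127.5 CPM in the others (-1.63), Clu, which encodes clusterin and marks revival stem cells, at 216 CPM and 395 CPM (-0.87), and Ly6a, known as Sca-1, at 61.1 CPM and 106 CPM (-0.80). Krt7 (-0.48), Anxa3 (-0.41) and Tnfrsf12a (-0.03) were not called. By UMIs of this list in the thinned day 3 cell, S-high cells were 14.8% of 229 cells with 3 to 7, 21.2% of 452 cells with 8 to 31, 8.0% of 75 cells with 32 to 127 and 0 of 17 cells with at least 128, which allows up to 17.6%. The share thus did not fall steadily, and that limit lies close to the 17.7% of all day 3 cells. At day 5 these genes were scarce. Of 12, Msln was lower, with 0 UMIs in S-high cells and 18.4 CPM in the others, at least 4.36-fold lower at a floor of 3 UMIs, and 11 were not called. The day 5 median was -0.53, or -0.16 with the 4 genes at 0 UMIs in S-high cells set to their bound.

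Absorptive genes were lower in S-high cells, all of those listed at day 5 and fewer at day 3. All 16 enterocyte genes were lower in S-high cells at day 5, with a median of -2.98, or -2.73 with Lct and Slc2a2, at 0 UMIs in S-high cells, set to their bound. Fabp1, the fatty acid carrier, was at 729 CPM in S-high cells and 4188 CPM in the others at day 5 (-2.52), and at 36.7 CPM and 307 CPM at day 3 (-3.06). Apoa4, an apolipoprotein of fat absorption, stood at -4.77 at day 5 and the brush-border enzyme gene Sis at -3.02. The glucose transporter gene Slc2a2 had 0 UMIs in S-high cells and 73.1 CPM in the others at day 5, at least 17.3-fold lower. At day 3, 7 of 15 were lower and 0 higher, with a median of -1.31. Of genes outside the 38, 6.9% were called lower at day 5 and 4.44% at day 3. Without the day 3 Enterocyte-like cluster 3 of 13 were lower, with a median of -0.38. At day 5, 14 of 16 were lower without the Enterocyte-like clusters of both libraries, with a median of -1.67. Shares over all genes were not computed without these clusters. Of the 426 day 5 cells with 128 or more of 6500 UMIs from enterocyte genes, 0 were S-high and 0 reached 10 UMIs of the 38 genes, which allows up to 0.704%. Of the 208 day 5 cells with 3 to 7 such UMIs, 9.13% were S-high.

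Secretory genes gave no single picture. At day 3, 8 of 11 goblet genes were lower in S-high cells and 0 higher (median -1.11), with Tff3 at 540 CPM in S-high cells and 1059 CPM in the others (-0.97) and the mucin gene Muc2 at -1.74. At day 3 as well, 4 of 10 Paneth genes (median -0.62) and 7 of 13 enteroendocrine genes were lower and 0 higher, and 51.0% of the Paneth UMIs of the 141 S-high cells lay in 1 cell and 80.2% in 5. At day 5, 3 of 10 enteroendocrine genes were lower and 0 higher. At day 5 as well, 5 of 10 Paneth genes were lower and Lyz1, which encodes the lysozyme of Paneth cells, was higher, at 271 CPM in S-high cells and 31.7 CPM in the others (3.10). Of 11 goblet genes at day 5, 3 were lower in S-high cells and Agr2, which folds mucins, was higher (1.06). Outside the main list of replication genes, 8.82% of genes were called higher and 6.9% lower at day 5. The shares at day 3 were 1.99% higher and 4.44% lower. A list of 10 or 11 genes with 1 higher, as for Lyz1 and Agr2, is thus close to the day 5 share. A single cell held 41.2% of the Paneth UMIs of the 39 S-high cells, and a single cell 83.5% of their goblet UMIs. With the limit at 10 UMIs, 8 of 10 Paneth genes were higher and 1 lower at day 5, and the median turned to 1.70 against -1.04 at 20 UMIs. In that setting 67.5% of the Paneth UMIs lay in 5 of 162 cells, and shares over all genes were not computed. Of genes of secretory commitment, Hes6 (0.75) and Sox4 (0.82) were higher in day 5 S-high cells and the other 3 measured were not called, among them Atoh1, the secretory master regulator (1.65 from 6 UMIs). At day 3, 0 of 6 were called. The part of cells caught together in a droplet in these values was not tested, since no doublet caller was run.

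**Figure D5:**
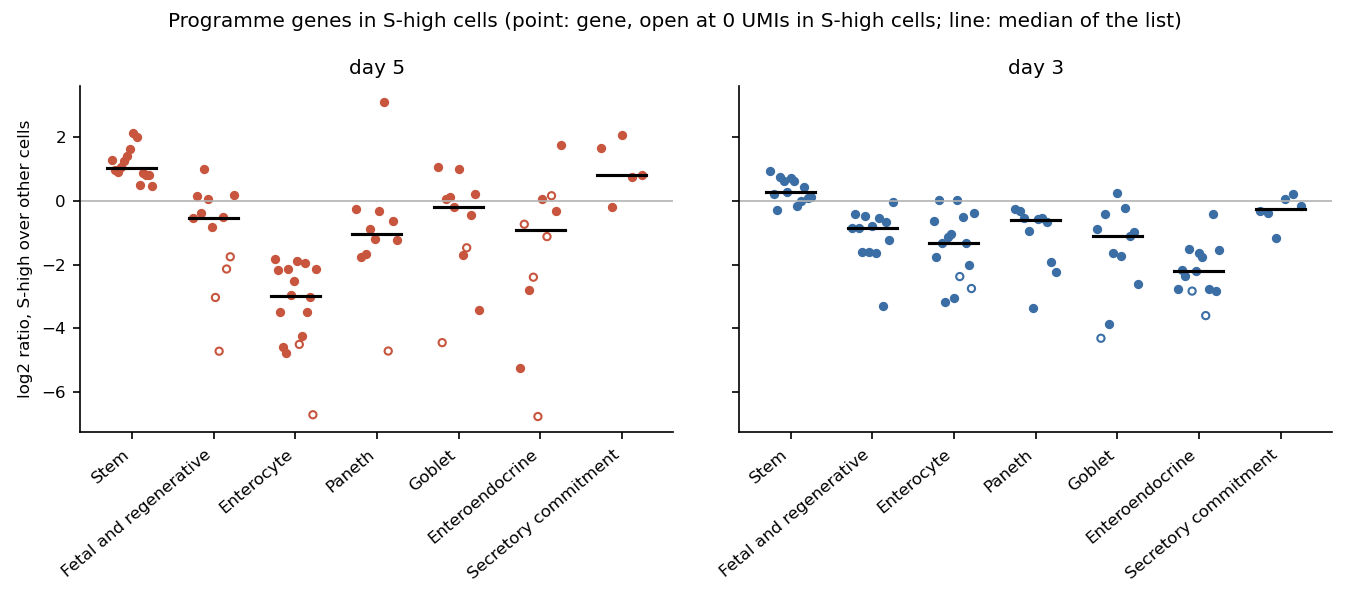
Log2 ratio in S-high over other cells of the same library for each gene of 7 lists (points, open where the gene had 0 UMIs in S-high cells), day 5 left and day 3 right, with a line at the median of each list. Stem genes lie mostly above 0 and enterocyte genes below it at both days, with medians of 1.02 and -2.98 at day 5 and 0.27 and -1.31 at day 3.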

How the data were processed

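The authors deposited raw UMI counts per gene and cell for both days, and a second table with log2 values for them. Cell Ranger 1.3.0 and build mm10 are named, per the submitters' processing notes. How genes and cells were filtered is not given in the sources used here. A prefix of each column named its day. Identifiers matched a symbol for 15681 genes and not for 64. The 38 genes and all other lists were chosen with earlier results of these data known.

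For each library the counts of all cells were added up and scaled to CPM. Log2 ratios used 0.5 UMI added to each sum, and genes needed at least 10 UMIs over the cells compared. The authors' deposited log2 values served as an alternative. TMM factors came from edgeR 4.0.16 in R 4.3.3, and no count test was run. Cells were thinned to 6500 UMIs with a fixed seed, and shares have exact Clopper-Pearson intervals, or for a count of 0 a limit of 3 cells of the total. Clusters came from 2000 variable genes, 30 principal components and 15 neighbours (Leiden, resolution 1, igraph 0.11.9). A cluster took a cell type's name with "-like" if 3 or more of its 25 leading genes were that type's markers, unless another type had more among the first 10. No doublet caller was run and no cell was removed. Python 3.11.15, numpy 2.4.6, pandas 2.3.3, scipy 1.17.1, scanpy 1.11.5 and matplotlib 3.10.9 were used. Scripts were tested on simulated data.

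Named genes were all 38, the 2 highest and 2 lowest by day ratio of each other cell cycle list, and the 10 genes outside all lists with the highest lower ratio in S-high cells, given at least 50 UMIs there in each library. Promoters were taken for the 3 highest and the 2 lowest of the 38 genes by that measure, where an entry existed, which gave Ccne1, Ung and Pola1. Those of Mcm6 and Mcm3 were added after their matches were seen. Other genes of the stem, regenerative, absorptive and secretory lists were chosen for the text after their values were seen. Positions come from GENCODE M21 on GRCm38, which mm10 names. Alternatives were another scaling, thinning, limit for S-high cells, cluster resolution and choice of cells.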

Additional observations from a re-analysis of the deposited data

How the results depend on the processing

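No paired analysis was possible because each day has 1 library. The log2 ratio of the sum, -1.23, was below 0 under every alternative run. It was -0.91 with TMM factors, -1.16 without Enterocyte-like clusters, -0.775 for day 5 cells of at least 17601 UMIs, -1.31 without the 5% of cells with most UMIs and -1.55 with each cell weighed alike. Of the alternatives added after the data were seen, clusters from both libraries gave -0.91 and G2/M-high cells -0.49. In G2/M-high cells 16 genes were lower, against 30 to 38 under the other alternatives, and Prim1 (0.041) and Rad51ap1 (0.20) were reversed in sign. The authors' log2 values gave a difference of -22.4 summed over the 38 genes, on another scale. The S-high share was 15.2% at day 5 and 59.5% at day 3 with a limit of 10 UMIs, and 0.469% and 2.13% with 30. It was 14.4% and 36.8% by scanpy. At day 5 it was 5.00% in cells of at least 17601 UMIs and 5.57% without Enterocyte-like clusters of both libraries. The day 3 Enterocyte-like share was 10.1% at resolution 0.5.

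Medians of list ratios in S-high cells moved as follows. With 10 UMIs, day 5 enterocyte genes gave -3.77, Paneth genes 1.70 and goblet genes 0.18, the last 2 reversed, and day 3 Paneth genes -0.15. With 30 UMIs, which leaves 5 cells at day 5 and 17 at day 3, day 5 gave 0.50 for fetal genes, 1.93 for enteroendocrine genes and -0.022 for secretory commitment, all reversed, and -2.11 for enterocyte, -2.46 for Paneth and -2.05 for goblet genes. Day 3 gave 0.58 for secretory commitment, reversed, 0.88 for stem, -1.17 for fetal, -1.78 for Paneth and -0.85 for goblet genes. With the top 25% of cells, day 5 gave 1.904 for stem and -3.61 for enterocyte genes, and, reversed, 0.31 for fetal and 1.303 for Paneth genes. Day 3 gave -0.39 for fetal and -0.93 for goblet genes. Without Enterocyte-like clusters of both libraries, day 5 enterocyte genes gave -1.67 and stem genes 0.65. Without the Enterocyte-like cluster of day 3, day 3 enterocyte genes gave -0.38. The cause of these moves was not tested. Intervals cover counting error and not the spread between cultures, and low-count genes such as Ccne1, Ccne2 and Cdc45 have the widest. Thinning to 9800 UMIs left out 183 day 5 cells.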

Other observations

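Of 20 genes of D cyclins, their kinases, CDK inhibitors and the retinoblastoma family, 6 were higher and 1 lower in S-high cells at day 5, and 2 higher and 2 lower at day 3. Outside the main list of replication genes, 8.82% of genes were called higher and 6.9% lower at day 5. The shares at day 3 were 1.99% higher and 4.44% lower. The count of 1 lower at day 5 is thus not above the share of other genes. Cdkn2b, which encodes the CDK4/6 inhibitor p15, was lower in S-high cells at both days. It was at 14.1 CPM in S-high cells and 61.4 CPM in the others at day 5 (-2.06), and at 11.2 CPM and 24.1 CPM at day 3 (-1.09). Ccnd1, cyclin D1, was at 61.9 CPM in S-high cells and 43.8 CPM in the others at day 5 (0.52), and at 136 CPM and 158 CPM at day 3 (-0.21), and it was called at neither day. Its partner Cdk6 was higher in S-high cells at day 5 (0.90) and not called at day 3 (-0.28). Rb1 was called at neither day (-0.04 at day 5, -0.38 at day 3).

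Gins1, 1 of 7 other replication genes not called between days, was higher in S-high cells at day 5, at 28.1 CPM in them and 14.1 CPM in the others (1.03). At day 3 it was at 16.6 CPM and 12.2 CPM (0.45) and was not called.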
